A study of Mus musculus with 8 samples.

Results

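Long intergenic noncoding RNAs (lincRNAs) were represented on the array by 16251 features, recognised by the manufacturer's prefix for this class, among 55681 features that were not controls. The 3813 features (23.5%) that the scanner flagged as well above background in at least 4 of the 8 animals were kept, and the 3808 of them with a value on all 4 arrays were tested. RNA was taken from the white portion of the gastrocnemius, a calf muscle made mostly of fast fibres. The 4 wild type PUS1 animals and the 4 animals homozygous for mutant PUS1 were all 14 to 16 weeks old, with 2 males and 2 females in each group. PUS1 encodes pseudouridine synthase 1, which converts uridine to pseudouridine in tRNA and other RNAs. All animals were C57BL/6J after 5 generations of backcrossing, and the labels describe the mutant allele no further. Labelled RNA of a wild type and a mutant animal, always of like sex, was hybridised together on each of 4 arrays, which gave male pairs 1 and 2 and female pairs 3 and 4. The mutant carried Cy5 in pairs 1 and 3 and Cy3 in pairs 2 and 4. The question put to these features was which lincRNAs are detectable in white muscle, how far they vary between animals, and whether they differ between the genotypes.

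LincRNAs are transcripts that lie outside protein-coding genes and carry no long open reading frame. Some act at the chromatin they are transcribed from, as Xist does on the inactive X chromosome, and others hold nuclear bodies together, as Neat1 does in paraspeckles. In muscle the best-known member is H19, an imprinted RNA that is abundant before birth and while myoblasts differentiate. Most of the others are known only as transcribed regions, and their level tends to be low and tied to particular tissues.

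The features described most lincRNAs by genome region and strand, in mouse build mm9, and 57 features by 1 of 12 names. Through RefSeq, 6 of the 12 names had a start site in the promoter table, build GRCm38.p6. The 3 start sites below belong to named RNAs detected here and show where each transcript begins. Each run holds 50 bases before the start in lower case and the first 50 transcribed bases in capitals, read 5′ to 3′ along the transcript. Xist, on the minus strand of the X chromosome, carries the sex difference described further on. Malat1, on the minus strand of chromosome 19, is the RNA the array calls NEAT2, and Tug1 lies on the minus strand of chromosome 11.
Xist, chrX:103483184-103483283: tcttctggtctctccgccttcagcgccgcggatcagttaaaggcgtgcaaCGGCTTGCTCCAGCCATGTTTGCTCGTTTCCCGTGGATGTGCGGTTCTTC
Malat1, chr19:5802623-5802722: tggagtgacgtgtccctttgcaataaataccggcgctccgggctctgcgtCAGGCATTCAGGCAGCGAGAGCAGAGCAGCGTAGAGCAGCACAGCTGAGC
Tug1, chr11:3648765-3648864: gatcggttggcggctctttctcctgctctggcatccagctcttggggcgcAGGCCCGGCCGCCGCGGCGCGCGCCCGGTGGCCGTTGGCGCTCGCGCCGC

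The targeted gene followed the labels. The Pus1 feature had log2 levels of 8.06, 8.36, 8.15 and 8.29 in the wild type, and of 6.75, 6.92, 6.49 and 6.85 in the mutants, each given in the order of pairs 1 to 4 here and below. The scanner flagged it as above background in each wild type animal and in 0 of 4 mutants, which makes it at least 2.76-fold higher in wild type. It thus passed the detection filter only through the wild type, the group where it is high. With that limit, its limma adjusted p was 0.0786, the smallest among all 23095 features tested. Markers of fast fibres were tested with 12 of 12 genes and markers of slow fibres with 15 of 15. All 4 arrays lay on 1 slide, and their number limits the precision of every value below.

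Most lincRNA features were not well above background in white muscle. Of the 16251 features, 10732 (66.0%) were well above background in no animal and 2322 (14.3%) in all 8. By the scanner's milder flag for a significant signal, 8401 features reached at least 4 animals. Among the 26640 features with an NM accession, which mark protein-coding messages, 55.7% were kept, and among the 1426 with an NR accession, which mark annotated noncoding transcripts, 28.3% were kept. The share of lincRNA features above background was 18.6%, 27.7%, 21.9% and 26.3% in wild type animals. In mutants it was 18.0%, 21.3%, 28.2% and 22.3%. The share of features with an NM accession lay between 52.2% and 59.5%, above the lincRNA share in every animal. The gap averaged 32.1 percentage points and was at least 29.4 points in each of 8 animals (exact sign-flip test over the means of 4 arrays, two-sided, p = 0.125, the smallest that 4 arrays allow).

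The lincRNA share did not separate the genotypes. Mutant minus wild type averaged −1.14 percentage points over the 4 pairs, with pair values between −6.36 and 6.31 points (exact sign-flip test, two-sided, p = 0.625, where 4 pairs cannot go below 0.125). The Cy5 channel had a higher share than the Cy3 channel by 4.03 points on average (exact sign-flip test, two-sided, p = 0.25), with array values from −0.529 to 6.36 points. Pair 1 had the lowest shares of both genotypes. No lincRNA spot was saturated in any animal.

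**Figure D1:**
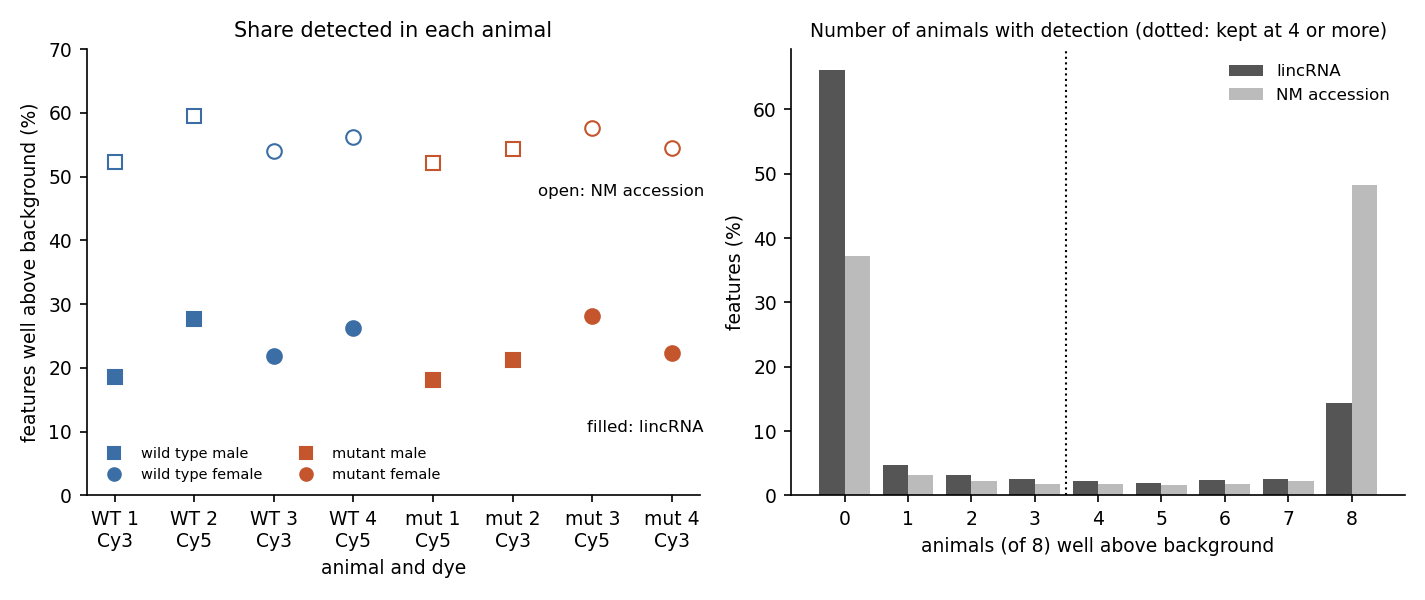
Left, the percentage of lincRNA features (filled) and of features with an NM accession (open) that were well above background in each animal, with the dye under each animal. Right, the percentage of each class by the number of animals with detection. The lincRNA shares lie between 18.0% and 28.2%, below every NM share, and 66.0% of lincRNA features were detected in no animal.

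The threshold of 4 animals fell in a thinly filled range. Between 318 and 512 features were detected in each number of animals from 2 to 7, against 2322 in all 8. Just inside it, at 4 animals, the 3 brightest features had mean log2 levels of 8.74 (XIST), 7.38 (forward strand of chr6:134838675-134847075) and 7.34 (forward strand of chr4:130185389-130185755). Just outside it, at 3 animals, the 3 brightest had mean log2 levels of 7.08, 7.01 and 7.01, on chr11:33414450-33450750, chr1:175705225-175717250 and chr12:81217572-81233910. The XIST feature differed from its neighbours inside the threshold, as all 4 of its detections were in females.

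The features with coordinates covered 3543 genome regions between 62 and 7128487 bases long, and 1745 regions (49.3%) had at least 1 kept feature. Regions with a kept feature were longer, with a median of 10947 bases against 3334.5 bases, but long regions also carried more features. Among the 1809 regions that carried 3 features on 1 strand, the medians were 2937.5 and 1860 bases. Counted by feature, 21.0% were kept in regions of up to 5176 bases and 23.5% to 24.6% in the 3 longer classes of about equal size. Across chromosomes the kept share ran from 14.7% on chromosome 9 to 28.9% on chromosome 14, and on the X chromosome it was 20.6%. Both strands were probed in 1067 regions, of which 364 had a kept feature on each strand, 438 on 1 strand and 265 on neither.

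Features of the same region and strand gave related readings. Only kept features enter here, and the detection filter that kept them uses the level, so low levels are cut off. Over 3070 pairs of kept features of 1 region and strand, the log2 levels correlated at 0.50 and the mutant over wild type log2 ratios at 0.58. Over 1847 pairs on opposite strands of 1 region the correlations were 0.00 and 0.12. These are descriptions across features that share arrays and animals, and spot brightness also depends on the feature's own sequence, so levels are not compared between features as abundances.

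The spots of lincRNA features were mostly dim. Their median log2 level was 7.53, the upper quartile 8.47, and 168 features (4.41%) exceeded 12, against a median of 9.005 and 14.3% above 12 for features with an NM accession. Features with an NR accession had a median of 7.88, closer to that of lincRNA features, and 14.6% above 12. The brightest feature of each of the 8 brightest regions was well above background in all 8 animals, with mean log2 levels of 15.6 to 17.1. At chr14:78924115-78938125, forward strand, this feature had 17.00, 17.04, 16.87 and 17.16 in wild type animals and 17.16, 17.03, 17.33 and 16.88 in mutants. Only 2 of the 7 features there were kept, and the other had a mean of 7.04. At chr19:5801802-5802597, reverse strand, the brightest feature had 16.91, 16.53, 16.40 and 16.77 in wild type animals and 16.15, 16.65, 17.03 and 16.42 in mutants. In both features the genotypes overlapped. By number, the coordinates at chr19:5801802-5802597 lie close to the Malat1 start site given above. The builds differ, and this region was not matched to Malat1. Mutant over wild type log2 ratios of the 8 brightest ran from −0.09 to 0.12, with limma adjusted p of 1.00 for each.

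In the 5 brightest regions with both strands tested, each strand is given by 1 feature picked for its brightness. By these features 1 strand was bright and the other dimmer in 4 regions, and both were bright in 1. The regions were chosen for brightness, so the values are a description of spots, not of abundance. At chr6:116092274-116144199 the forward feature had a mean log2 level of 16.49 and the reverse feature 8.27. At chr6:83368261-83407280 the levels were 16.08 on the forward and 8.84 on the reverse strand. Other features of these strands were dimmer. The tested forward features went down to 9.89 in the first of these regions. In the second they went down to 7.07, below the reverse feature. The reverse strand was the brighter one at chr7:108209996-108216032, with 15.61 against 10.74, and at chr11:22681800-22707775, with 15.51 against 8.14. At chr12:73838608-73862621 both were bright, with 15.60 on the forward and 16.32 on the reverse strand, where the tested features went down to 7.53. The log2 ratio of mutant over wild type at chr12:73838608-73862621 was 0.14 ± 0.12 (SE, 4 pairs) for the forward feature and 0.12 ± 0.10 for the reverse feature.

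The median spread between animals was larger for lincRNA features than for features with an NM accession in each of 6 brightness classes. The median SD of the log2 level was 0.191 over 4 wild type animals and 0.259 over 4 mutants, against 0.163 and 0.2002 for features with an NM accession and 0.209 and 0.263 for those with an NR accession. Between log2 levels of 8 and 9 the medians were 0.208 and 0.293 for lincRNA features against 0.167 and 0.206, and above 12 they were 0.229 and 0.325 against 0.163 and 0.199. The upper tail did not follow the medians there: above 12 the 95th percentile of the SD over 8 animals was 0.690 for lincRNA features and 0.730 for features with an NM accession. Animals that shared an array varied together. Differences between arrays made up 74.3% of the sum of squares of lincRNA features and 63.5% of that of features with an NM accession. For features with an NR accession the share was 69.7%, and for the remaining features it was 73.4%, so a high share was not particular to lincRNAs. Each array held 1 sex, so such shares, here and below, include differences between the sexes. Part of the sum would fall between arrays even if animals of 1 array were unrelated.

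An SD above 1 over the 8 animals was reached by 39 lincRNA features (1.02%), a share between those of features with an NM accession (0.796%) and with an NR accession (1.98%), and for them 89.2% of the sum of squares lay between arrays. The feature with the largest SD was an XIST feature, described below with the sexes. The next regions showed another pattern, with low levels in both animals of pair 1. In a region of chromosome 5, chr5:15146475-15170100 on the forward strand, 4 of 4 features were kept. The one of largest SD had 8.96, 10.96, 10.73 and 12.15 in wild type animals and 7.37, 10.30, 12.20 and 11.67 in mutants. Close to it, chr5:14943275-14944205 on the same strand had 2 of 2 features kept. The one of larger SD had 8.81, 10.76, 10.56 and 11.90 in wild type animals and 7.41, 10.06, 11.93 and 11.56 in mutants. Levels in pair 1 were thus the lowest of each genotype, and those of wild type 4 and mutants 3 and 4 the highest.

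The same order of arrays recurred in the other regions of largest spread. On chromosome 13 the forward strand of chr13:73472571-73483846 had 9.10 and 7.65 in wild type 1 and mutant 1, against 12.001 and 11.69 in wild type 4 and mutant 4. Chromosome 1 held another on the forward strand, chr1:183951156-183986156, with 11.52 and 10.29 in pair 1 and 14.42 and 14.12 in pair 4. At chr5:125205454-125209470, also on the forward strand, the values were 8.22 and 7.43 in pair 1 and 11.38 and 11.10 in pair 4. Each of these regions is read from 1 kept feature, of 7, 5 and 3 features on that strand in the order given. The other features there did not pass the detection filter. None of the 5 regions differed between genotypes beyond this spread, with log2 ratios of −0.32 to −0.12 and limma adjusted p of 1.00. Their differences of females minus males, 2.13 to 2.29 on the log2 scale, missed the threshold (limma adjusted p of 0.0777 to 0.150). The level of endothelial markers (7 of 7 genes tested) ran the other way over the 8 animals, with medians of 9.10 and 9.36 in pair 1 and 8.56 and 8.47 in pair 4. All 6 features of largest SD, XIST included, correlated with that median at −0.88 to −0.80 (Pearson, 8 animals that shared arrays in pairs), the strongest of 8 marker lists compared. The part of these cells in the spread was not tested.

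**Figure D2:**
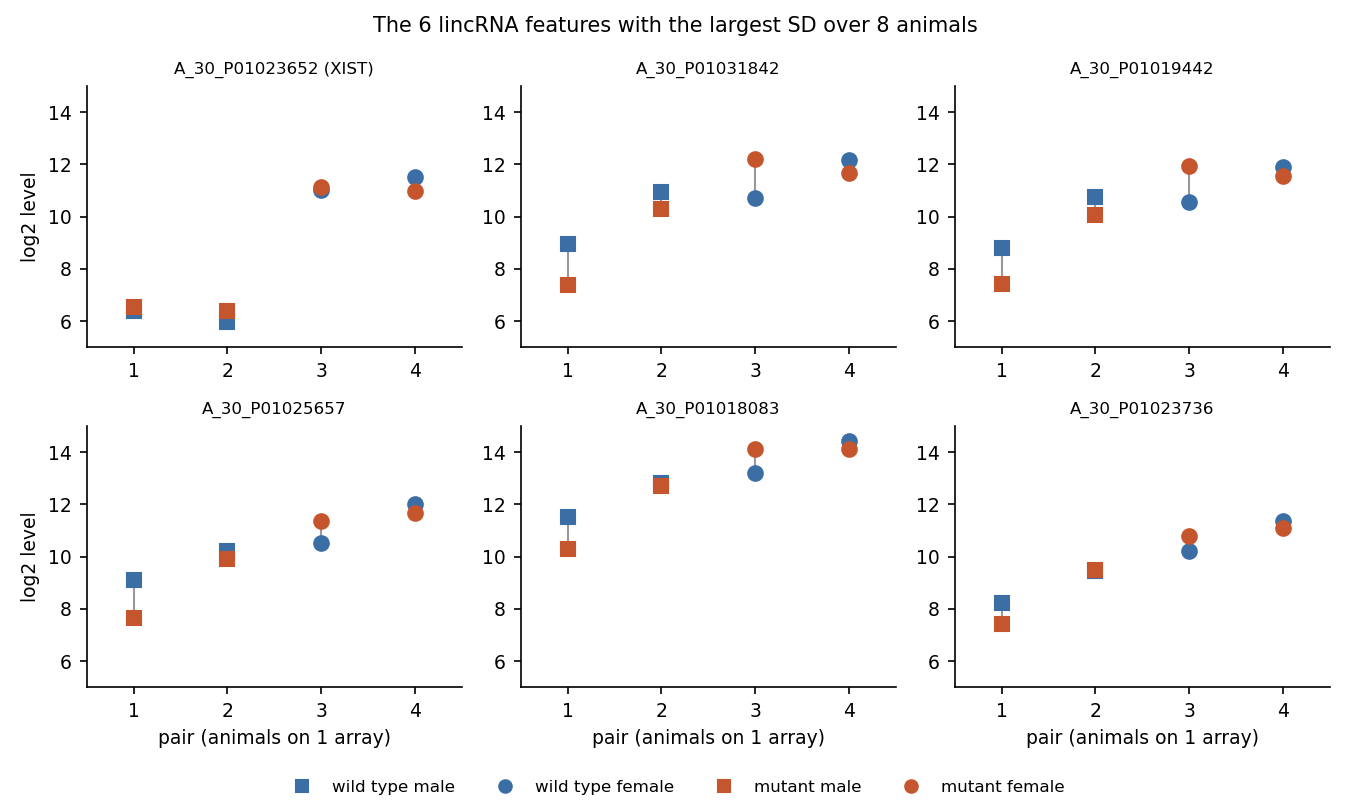
Log2 level (y axis) of the 6 lincRNA features with the largest SD over 8 animals, by pair (x axis). Squares are males, circles females, and a grey line joins the wild type and the mutant animal of 1 array. The XIST feature separates pairs 1 and 2 from pairs 3 and 4, while the other 5 features are lowest in both animals of pair 1.

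For genotype, no lincRNA feature passed the threshold. After Benjamini-Hochberg adjustment over all 23095 tested features, limma called 0 of 3808 lincRNA features at 0.05, where 0% of all features were called. At an unadjusted p under 0.01 there were 20 lincRNA features (0.525%), against 0.684% of all features. Of these, 11 were higher and 9 lower in mutants, against 0.277% of all features higher and 0.407% lower. At an unadjusted p under 0.05 there were 92 (2.42%), against 3.35% of all features. The sign was the same in 4 of 4 pairs for 323 lincRNA features (8.48%), against 9.93% of all features. These shares lay near or below those of all features, so the counts say nothing particular about lincRNAs. The median log2 ratio was 0.01, and 39 features (1.02%) had a log2 ratio beyond 0.5 in either direction, against 1.02% of all features.

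The number of features that passed depended on pair 3. Without it, 43 of 3808 lincRNA features passed at 0.05 in limma, 12 higher and 31 lower in mutants, where 1.06% of all features passed. In that fit pair 1 was the only array with the mutant in Cy5, so the dye term fitted it exactly. The residual spread came from pairs 2 and 4 alone, so the 43 calls rest on an unchecked pair 1. In each other fit without 1 pair, 1 array likewise stood alone for its dye. Of these 43, 17 had in pair 3 the sign of the other pairs' estimate. This share lay near the 43.0% of all tested lincRNA features, so it says nothing particular about the 43. Without pair 1, 2 or 4 in turn, none passed, and 87, 15 and 8 features had an unadjusted p under 0.01, against 2.51%, 0.719% and 0.229% of all features. With arrays centred on the median in place of loess, 1 lincRNA feature passed, against 0.0996% of all features.

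The 20 features with an unadjusted p under 0.01 came from 11 regions or names. The forward strand of chr6:83541250-83560425 and H19 gave 5 features each, the forward strand of chr19:5771425-5848475 gave 2, and the remaining regions 1 each. The median log2 ratio of each chromosome's features stayed between −0.02 and 0.04.

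The region on chromosome 6 had the smallest p on the higher side. All 5 of its features were higher in mutants in 4 of 4 pairs, with log2 ratios of 0.48 to 0.95. Averaged over the 5, the log2 level was 8.49, 8.29, 8.53 and 8.44 in wild type animals and 9.45, 8.92, 9.03 and 9.27 in mutants. The genotypes did not overlap, in a region picked for its small p. Its leading feature (A_30_P01033455) had a log2 ratio of 0.91 ± 0.12 (SE, 4 pairs), with a limma adjusted p of 0.596. Without pair 3 the ratio was 1.02 and the adjusted p 0.0194, with the limit of that fit given above.

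On chromosome 5, which holds Pus1, 3 of 260 tested features (1.15%) had an unadjusted p under 0.01, against 0.684% of all features. The share was 2.27% on chromosome 6 and 2.25% on chromosome 19. The position of Pus1 in build mm9 was not used here. At chr5:73771801-73772662, forward strand, a feature (A_30_P01018547) had 6.67, 6.97, 6.84 and 6.29 in wild type animals and 7.32, 7.55, 7.58 and 7.34 in mutants. Its spot was flagged above background in 1 wild type animal and in all 4 mutants, so it passed the detection filter through the mutants. The log2 ratio was 0.75 ± 0.11 with a limma adjusted p of 0.599, and it was 2.20 both with the scanner's processed signals and with the authors' deposited table. Only 1 of the other 2 features of that region was kept, and its log2 ratio was −0.01. The forward strands of chr5:92556322-92558910 and chr5:125861675-125880125 had log2 ratios of −0.40 ± 0.10 and −0.40 ± 0.10.

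The remaining features higher in 4 of 4 pairs had smaller or more variable ratios. On chromosome 17 the reverse strand held overlapping regions, chr17:32035750-32056000 with 2 of 2 features tested and chr17:32044823-32045974 with 3 of 3. All 5 features were higher in each pair, with log2 ratios of 0.67 to 0.81. In the first of them the mean log2 level was 8.44, 8.69, 9.38 and 9.02 in wild type animals and 10.04, 9.08, 9.51 and 10.11 in mutants, so that the genotypes overlapped. The pair ratios were 1.60 in pair 1 and 1.10 in pair 4 but 0.38 and 0.13 in pairs 2 and 3. On chromosome 13 the forward strand of chr13:94180737-94182912 was higher in each pair in 3 of 3 features, by 0.22 to 0.29. The forward strand of chr17:29571806-29603008 had ratios of 0.32 to 0.53 in its 3 features and chr17:85418489-85427364 of 0.23 to 0.30. The last of the higher features, on chr15:73342136-73342235, chr10:94870971-94871658 and chr5:112205091-112240992, had log2 ratios of 0.34, 0.56 and 0.29.

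Among features lower in 4 of 4 pairs, the reverse strand of chr15:79764481-79809909 (A_30_P01018760) had the smallest p. Its log2 levels were 9.89, 10.03, 9.40 and 9.68 in wild type animals and 8.74, 9.40, 8.85 and 8.65 in mutants. Wild type 3 and mutant 2 met at 9.40, and the log2 ratio was −0.84 ± 0.14 (limma adjusted p = 0.777). The other 2 tested features of that region had log2 ratios of 0.05 and 0.06, so the difference rested on 1 feature. With median centring its ratio was −0.93 and its adjusted p 0.0351.

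The other lower features included regions whose features ran together and regions where they did not. The reverse strand of chr6:31115515-31168433 had log2 ratios of −0.69 to −0.50 in 3 of 3 features, 1 of them lower in each pair. The leading feature there had 8.90, 9.03, 9.42 and 9.60 in wild type animals and 8.04, 8.87, 8.63 and 8.62 in mutants. On chromosome 2 the reverse strand of chr2:152172745-152184745 ran from −0.60 to 0.01 over its 3 features. On chromosome 19 the forward strand of chr19:5771425-5848475, with 10 of 10 features tested, ran from −0.48 to 0.11, and 2 of the 10 were lower in each pair. The leading features of chr4:101010948-101032148, chr2:48818825-48822612, chr7:88131123-88136898 and chr12:5303823-5379098 had log2 ratios of −0.51, −0.46, −0.34 and −0.35. None of the 20 features named for the genotype passed in limma with all 4 pairs.

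**Figure D3:**
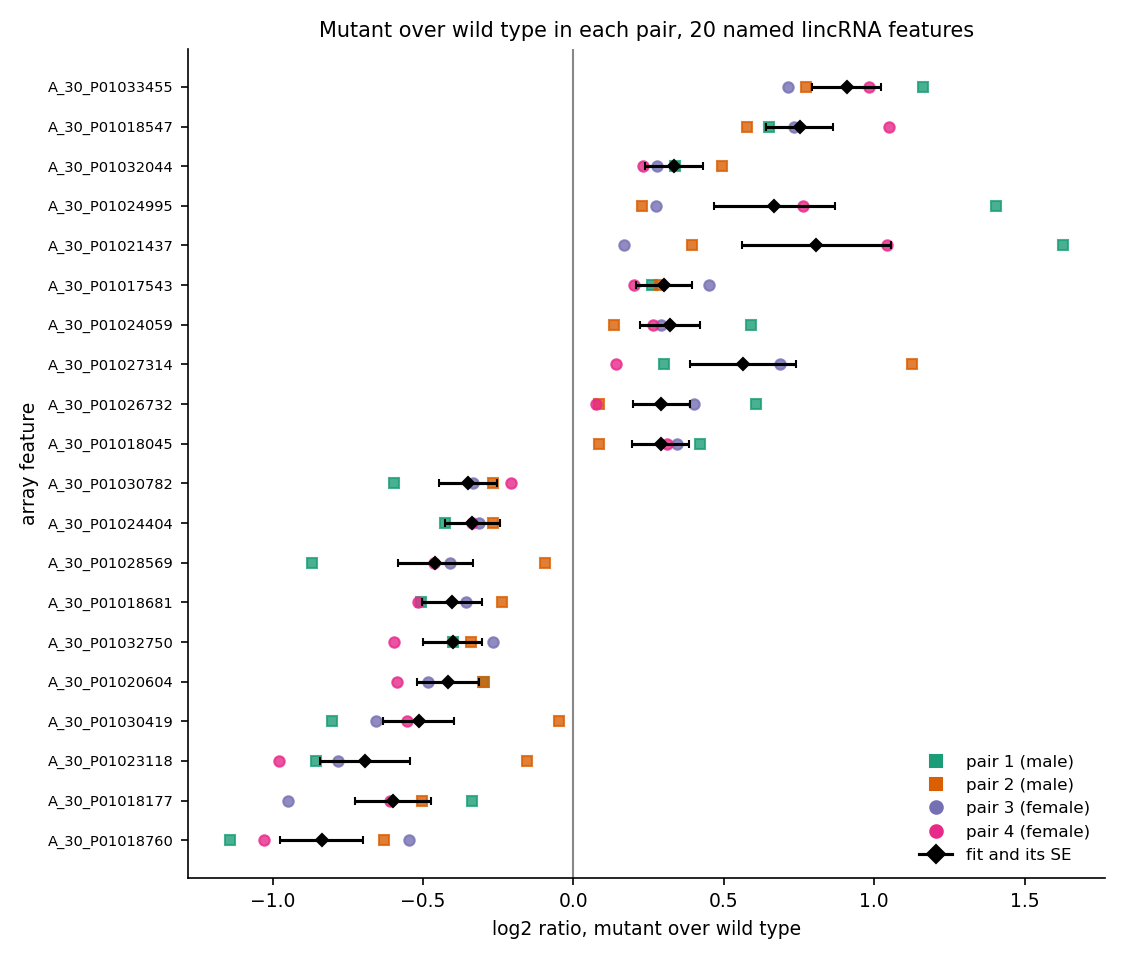
Log2 ratio of mutant over wild type (x axis) in each of 4 pairs for the 10 higher and the 10 lower lincRNA features with the smallest p among those of 1 sign in 4 of 4 pairs. Squares are male pairs, circles female pairs, and the black diamond with its bar is the limma estimate and its SE. The ratios of the leading feature run from 0.71 to 1.16, and those of several others reach close to 0 in pair 2 or pair 4.

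In the 5 regions with the most tested features, all on the forward strand, no feature passed in limma for genotype. At chr16:43623581-43642715 and chr17:26911397-26917047 all 10 features were tested, with median log2 ratios of −0.09 and −0.05. At chr11:95627874-95640824, with 9 of 10 features tested, the median was 0.03. The 10 features of chr4:129497990-129515290 had log2 ratios of −0.38 to −0.11 with a median of −0.30, all below 0, and 4 of them were lower in each pair. At chr19:5771425-5848475, described above, the median was −0.16. Outside these 5, the array gives chr17:12941161-12944859 without a strand, and its 5 features lay between −0.25 and −0.11.

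The named RNAs ranged from those with every feature kept to those with none. All features of H19 (5), NEAT1 (5), NEAT2 (3), TUG1 (5) and XIST (5) were kept. HOTAIR, an RNA from the Hoxc cluster, had 3 of 5 kept, NRON, a noncoding repressor of the transcription factor NFAT, 2 of 5, and KCNQ1ot1, an imprinted antisense RNA, 1 of 5. No feature was kept of TSIX (5), the antisense partner of Xist, PINC (5), lincP21 (5), a p53-induced RNA near Cdkn1a, or BRN1-A (4). Of these 19 features only 1, of PINC, was above background in as many as 1 animal.

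H19 was higher in mutants in 3 of 4 pairs. Averaged over its 5 features, the log2 level was 11.19, 10.78, 11.86 and 11.89 in wild type animals and 11.96, 10.67, 13.06 and 12.54 in mutants. The pair ratios were 0.77, −0.11, 1.20 and 0.66, and both pair 2 animals were the lowest of their group. Its features had log2 ratios of 0.56 to 0.68, all 5 with an unadjusted p under 0.01 in limma and an adjusted p of 1.00. The median over features stayed between 0.43 and 0.86 under 13 alternative settings. Fibroblast markers were higher in mutants for 8 of 8 genes, with median pair ratios of 1.41, −0.44, 0.18 and 0.54 and median levels of 10.03 to 10.85 in wild type and 9.99 to 11.61 in mutants. Erythroid markers were higher for 8 of 9 tested genes, with median pair ratios of 0.76, −0.64, 0.90 and 1.47, and median levels of 9.98 to 12.33 in wild type and 10.42 to 12.91 in mutants. Adipocyte markers were higher for 6 of 6 tested genes, with median pair ratios of 1.649, −1.14, 0.56 and 0.10 and median levels of 7.70 to 9.40 in wild type and 8.18 to 9.63 in mutants. Macrophage markers were also higher for 6 of 6, with median pair ratios of 0.94, −0.28, −0.16 and 0.34 and median levels of 7.20 to 7.84 in wild type and 7.32 to 8.15 in mutants. No marker gene of these 4 lists passed in limma. The part of these cells in the H19 values was not tested, and in bulk muscle fewer cells of a type and less RNA per cell cannot be told apart.

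NEAT1 was lower in mutants in 3 of 4 pairs. The mean log2 level of its 5 features was 14.75, 14.37, 14.55 and 14.31 in wild type animals and 12.57, 14.54, 13.75 and 13.91 in mutants. The pair ratios were −2.18, 0.18, −0.80 and −0.41, so that mutant 1 stood lowest and mutant 2 lay within the wild type range. The feature ratios were −0.85 to −0.77, with limma adjusted p of 1.00. Without pair 3 all 5 features passed at 0.05, with a median of −1.14. In that fit the dye term gave pair 1 as much weight as pairs 2 and 4 together and fitted it exactly. The pass therefore rested largely on mutant 1 and its partner. Without pair 1 the median was −0.46. The separate Neat1 feature with a RefSeq accession had 15.18, 14.57, 14.84 and 14.59 in wild type animals and 13.14, 14.79, 14.00 and 14.20 in mutants. Slow fibre markers were lower in mutants for 15 of 15 genes, with median pair ratios of −2.39, 0.87, −1.11 and −1.22 and median levels of 8.84 to 11.65 in wild type and 8.56 to 10.29 in mutants. Their part in the NEAT1 values was not tested.

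NEAT2, known as Malat1, an abundant RNA of nuclear speckles, differed within pairs in both directions. Its mean log2 level was 10.41, 10.52, 10.01 and 9.72 in wild type animals and 9.02, 11.11, 9.999 and 9.76 in mutants. Mutant 1 was the lowest and mutant 2 the highest of all 8 animals, with pair ratios of −1.39, 0.60, −0.01 and 0.04. The feature ratios were −0.27 to −0.15, and the median turned to 0.16 without pair 1. TUG1, an RNA first found as induced by taurine in the retina, was lower by less. Its mean log2 level was 7.75, 8.07, 7.91 and 7.83 in wild type animals and 7.63, 7.85, 7.64 and 7.78 in mutants, with a median ratio of −0.16. HOTAIR, KCNQ1ot1 and NRON had medians of −0.10, 0.04 and 0.05, and each of these 3 took the other sign under at least 1 alternative. None of these RNAs passed in limma.

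**Figure D4:**
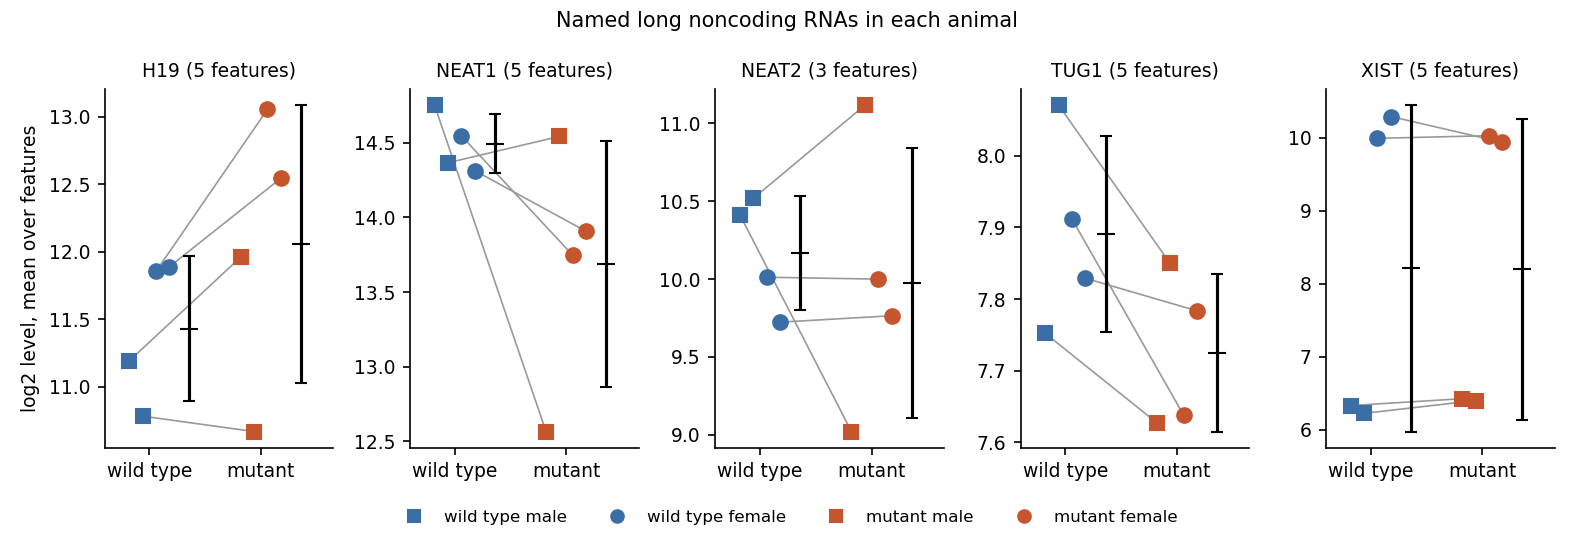
Log2 level, averaged over the features of each named RNA (y axis), in each wild type and mutant animal. Grey lines join the animals of 1 array, and black bars give the mean and SD of each group of 4. H19 is higher and NEAT1 lower in the mutant of pairs 1, 3 and 4, while XIST splits by sex and not by genotype.

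Beyond the lincRNA class, a list of 56 known long noncoding RNAs was looked up among features with accessions. Of these, 29 symbols had 39 features, and 24 features of 21 symbols were kept and tested. In limma, 0 of 24 reached an unadjusted p under 0.01, against 0.684% of all features, and 4 (16.7%) lay under 0.05, against 3.35%; none passed after adjustment. The 4 were Snhg6 (log2 ratio 0.41 ± 0.12), Peg13 (−0.31 ± 0.12), Snhg3 (−0.36 ± 0.14) and Neat1 (−0.76 ± 0.22). Snhg3 and Snhg6 host small nucleolar RNAs, and Peg13 is an imprinted RNA. The Xist feature of this set was higher in females by 1.42, with a limma adjusted p of 0.05004 for sex that lay just above the threshold. Snhg5 passed, with a log2 difference of females minus males of −0.56 (limma adjusted p = 0.0387).

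Between the sexes, 40 lincRNA features passed at an adjusted p of 0.05 in the limma fit of separate channels (1.05%, against 1.38% of all features). Of these, 16 were higher in females, where 0.515% of all features were called, and 24 were lower, where 0.866% were called. The 40 came from 24 regions or names. XIST gave 5, chromosome 3 gave 8, and the X chromosome apart from XIST gave 4. As each array held animals of 1 sex, the comparison rests on 2 arrays per sex, and on the array means alone 10 features passed, against 0.359% of all features. Without pair 2, 3 or 4 the count was 10, 5 and 5, against 0.234%, 0.139% and 0.0693% of all features. Without between-array normalization it was 9, against 0.204%, while XIST's 5 features passed under each of the 10 alternatives.

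XIST, the RNA that coats and silences 1 X chromosome in females, rose in females with each of its 5 features. Its leading feature (A_30_P01022001) had log2 levels of 6.34 and 6.42 in wild type males, 6.36 and 6.47 in mutant males, 10.54 and 10.92 in wild type females and 10.62 and 10.45 in mutant females. It was well above background in 4 of 4 females and 0 of 4 males, hence at least 17.0-fold higher in females (limma adjusted p = 1.43e-05). This feature thus passed the detection filter through the females. Over the 5 features the bound ran from 5.56-fold to 23.5-fold and the fitted log2 difference from 2.62 to 4.83. With the scanner's processed signals the fitted difference ran from 5.62 to 7.98, and with the authors' deposited table from 5.61 to 7.97. The genotypes did not separate, with log2 ratios of mutant over wild type between −0.08 and 0.05. Its antisense partner TSIX was detected in neither sex.

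Other regions higher in females differed by less. The reverse strand of chr10:94870971-94871658 (A_30_P01027314) had 7.21, 7.42, 7.51 and 8.54 in males and 9.40, 9.67, 10.09 and 9.81 in females, a log2 difference of 2.07 ± 0.24 (limma adjusted p = 0.0120). It was also higher in the mutant of each pair, so that it was named for both comparisons. Of its 3 features 2 passed for sex. At chr1:182686731-182709331, forward strand, 1 feature (A_30_P01021627) was detected in 4 of 4 females and 0 of 4 males, so it passed the detection filter through the females. It was at least 1.89-fold higher in females (limma adjusted p = 0.00893). It was the 1 feature of 3 there that passed, and the log2 differences over the 3 ran from −0.58 to 0.95. The reverse strand of chr11:117835849-117842574 was higher by 0.89 ± 0.12 (limma adjusted p = 0.0175), in 1 of its 3 kept features.

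Lower levels in females were found on the X chromosome and on chromosomes 3 and 5. The forward strand of chrX:47890565-47915775 (A_30_P01030915) had 8.89, 8.67, 8.89 and 8.70 in males and 7.47, 7.16, 6.94 and 7.39 in females, and fell by 1.55 on the log2 scale (limma adjusted p = 0.00388). All 3 of its features passed. On chromosome 3 the forward strand held chr3:146645022-146646977 inside chr3:146629425-146649125, and 6 of their 7 features passed. The leading feature there had 14.13, 14.15, 14.23 and 14.51 in males and 12.93, 13.10, 13.02 and 13.24 in females (limma adjusted p = 0.00683). On chromosome 5 the leading feature on the reverse strand of chr5:107503800-107515575 was detected in 4 of 4 males and 0 of 4 females. It passed the detection filter through the males and was at least 2.73-fold higher in them (limma adjusted p = 0.00825). Both kept features of 4 in that region passed for sex. A region named above for genotype, chr17:29571806-29603008 on the forward strand, was lower in females in 3 of 3 features, by log2 differences of −1.34 to −1.07.

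**Figure D5:**
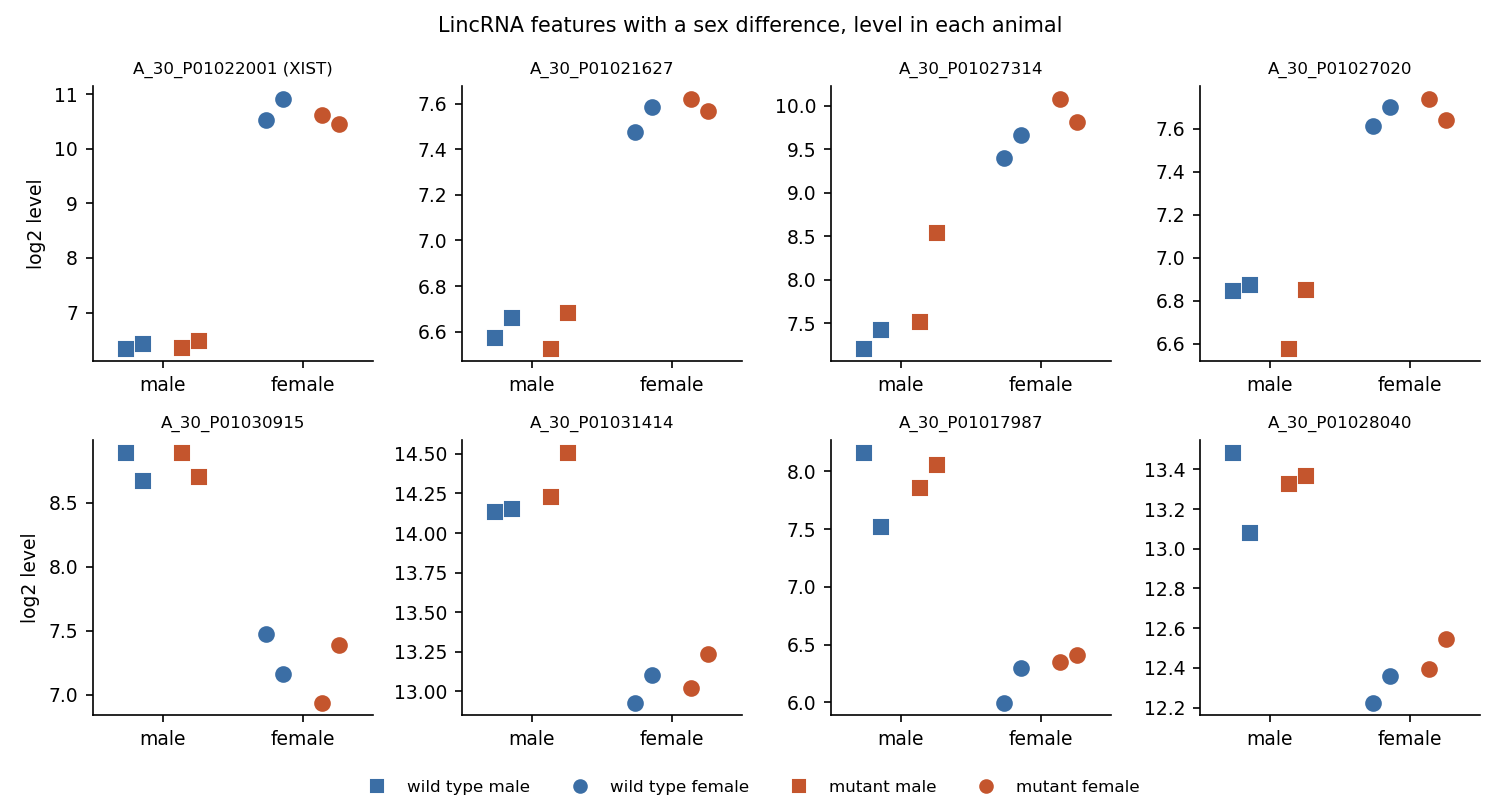
Log2 level (y axis) of the 4 lincRNA features higher in females (top) and the 4 higher in males (bottom) with the smallest p, in each animal. In all 8 panels the 4 males and the 4 females do not overlap, which the choice by the smallest p made close to certain.

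The genotype difference was not shown to depend on sex for any lincRNA feature. The interaction term of limma passed for 0 of 3808 features after adjustment, and 91 (2.39%) had an unadjusted p under 0.05, against 2.19% of all features. With 2 pairs per sex this fit left 1 residual degree of freedom before moderation.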

How the data were processed

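The deposited scanner files hold linear spot intensity values, made with Agilent Feature Extraction version 10.7.3.1, per the submitters' processing notes: median spot and background signals without background subtraction, and processed signals that the software background-subtracted and dye-normalized. Further columns there hold other values, 0 or 1, which per the file headers flag a spot as well above its background, as saturated or as an outlier. Each channel is 1 animal. A series-wide table by the authors was judged to hold log2 values, since its differences followed the log2 processed signals (correlation 0.992 to 0.998, slope 0.972 to 1.03), features were centred on a median of 0, and column medians lay between −0.0183 and 0.0335. Its normalization is not stated. It had 0 columns of other series.

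Here, median signals were corrected with normexp (offset 50), log ratios were normalized by loess within arrays with weight 0 for controls and outliers, which were then dropped. The design named spot signals without saying which, and medians were used because the files hold them. Levels are log2 channel values after normalization between arrays (Aquantile). Features well above background in at least 4 of 8 channels with a value on all arrays were tested (23095), and 5 kept lincRNA features lacked one. Ratios were fitted in limma 3.58.1 (R 4.3.3) with a dye term, and p-values were adjusted by Benjamini-Hochberg over all tested features; SE is the moderated one. Pair ratios carry no dye correction. Sex was fitted on separate channels with an intraspot correlation of 0.189, which was kept when a pair was left out. Where no animal of a group was above background, the fold is a bound ("at least"). On simulated ratios for the genotype comparison (23095 features), 78 of 100 changes of 1 on the log2 scale and 99 of 100 of 2 were called. The simulated noise was independent between features, and the adjustment is milder when many features change. These shares therefore do not carry over to the data, where 0 features were called. Even Pus1, with a log2 ratio of −1.46, missed the threshold.

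Features were named, 1 per region, by these rules: the 10 higher and the 10 lower with the smallest p among those of 1 sign in 4 pairs, the 8 brightest, the 6 of largest SD, those on chromosome 5 with an unadjusted p under 0.01, the 4 higher and the 4 lower in females with the smallest p, the 5 regions with the most tested features, the 5 brightest with both strands tested, 3 on each side of the detection threshold, and the named RNAs. Where a text sentence gives other features of a named region, they were looked up after their values were seen. Names of accession features and markers came from RefSeq (GRCm38.p6), and coordinates are those of the array files, mm9. Members and lists were chosen with earlier results of these data known.

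Animals of 1 number shared an array, so the pairing is physical and the ratio is the block. Their deviations from the group means correlated at 0.659, 0.278, 0.0595 and 0.636 in pairs 1 to 4 over all features and at 0.766, 0.366, 0.115 and 0.748 over lincRNA features. The labels number individuals, so each pair holds different animals. The limma p-values for genotype rest on the spread of the 4 pair ratios about the fit with a dye term. Those for sex rest on the spread of separate channels, although each array held 1 sex. They can be too small where animals of 1 array vary together, and fewer lincRNA features passed on array means.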

Additional observations from a re-analysis of the deposited data

Results flagged for a closer look

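Within each group of 4 animals, the levels of 73 features named in the text were searched for an animal far from the other 3, by Dixon's test of the gap to the nearest neighbour against the whole range. Of 146 groups, 8 (5.48%) held such an animal, where chance alone marks about 1 group in 20. No lincRNA feature had an adjusted sex by genotype interaction under 0.05, so none is listed for a genotype difference that depends on sex.

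Mutant 1 stood apart in 5 of the 8 groups. On the reverse strand of chr2:152172745-152184745 it had a log2 level of 9.20 against 8.59 to 8.65 in the other mutants, and on the forward strand of chr5:92556322-92558910 it had 7.08 against 7.76 to 7.86. In 3 features of chr17:12941161-12944859 it was lowest, with 7.36 against 8.08 to 8.18, 7.28 against 7.67 to 7.73, and 6.74 against 7.67 to 7.78. In the first of these features wild type 4 was also apart, with 8.41 against 8.02 to 8.08.

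The other 2 groups belonged to 1 HOTAIR feature that was detected in 4 animals. Wild type 4 had 6.74 against 7.03 to 7.08, and mutant 3 had 6.67 against 6.93 to 6.97.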

How the results depend on the processing

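For genotype, the count of lincRNA features with an unadjusted p under 0.01 was 20 and became 36 with median centring in place of loess, 11 without the replicate block on separate channels, and 62 of 16228 without the filter on dim features. Leaving out 1 pair gave 8 to 232 such features, and 0 to 43 past the adjusted threshold, the 232 and the 43 without pair 3. The share of all features is not given beside the 36, 11, 62 and 232, so these counts say nothing particular about lincRNAs. With all 4 pairs 0 passed, and 1 with median centring. The median log2 ratio of all lincRNA features stayed within the spread between pairs under all 13 alternatives. None of the 20 features named for genotype changed sign. For sex, 40 features passed, against 9 without between-array normalization, 75 without the filter, 124 in a fit without the replicate block and 10 on array means, an alternative chosen after seeing the data. Leaving out 1 pair gave 5 to 42. Nor is that share given beside the 75, 124 and 42, to which the same limit applies. The 8 features named for sex kept their direction in all 10 alternatives and together lost the threshold 31 times, 0 of them for XIST. Detection was 3813 features at 4 of 8 channels, 2322 at all 8, and 8401 with the scanner's milder flag for a significant signal. The causes were not tested. Dim spots limit the rest: log2 levels between about 6 and 7 lie at the detection floor, which was 5.97 to 6.70 per animal.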
